A study of Mus musculus with 4 samples.

Results

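A set of 9 genes that mark basal cells of the mammary gland or cells reported to act as mammary stem cells were followed in cells from MMTV-Cre and wild-type mice. They were Trp63, Cdh3, Sox10, Sox9, Procr, Lgr5, Lgr6, Bmi1 and Cd24a. A gene was taken where the platform annotation gave a probe set that gene's symbol alone, and the brightest on average was used where there were several. All 9 were found, among 22180 genes represented in the same way. They were covered by 11 probe sets, since Lgr5 and Cd24a had 2 each.

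Mammary epithelial cells came from the inguinal glands of mice aged 4 weeks on a congenic FVB/NJ background. MMTV-Cre samples came from mice in which the promoter of mouse mammary tumour virus drives Cre recombinase, and wild-type samples came from littermates without Cre. Each group had 2 samples, called biological replicates in the labels, with 1 Affymetrix array per sample. The labels used here do not give the transgenic line, the number of mice behind a sample, or the share of cells with Cre activity. The p-values therefore rest on the spread between these samples, in part pooled over genes, and not on a known number of mice.

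The mammary duct has an inner layer of luminal cells and an outer basal layer of contractile myoepithelial cells, and cells with the capacity to rebuild a gland on transplantation were found mainly among basal cells. The transcription factor p63, encoded by Trp63, is needed for the mammary bud and keeps the basal programme of stratified and glandular epithelia. Receptors of the Lgr family bind R-spondins and strengthen Wnt signalling, and protein C receptor, encoded by Procr, is itself a reported Wnt target that marks a small population of mammary cells with stem cell activity. At 4 weeks ducts are growing into the fat pad of the gland.

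Values are log2 levels per probe set, and differences are MMTV-Cre minus wild-type on that scale. The median over all probe sets, 2.84, was the limit below which a gene was called dim and was not tested, which left 11668 genes. Tests were two-sided, by limma with Benjamini-Hochberg adjustment over those genes. Of the 9 genes, 7 passed this filter, while Lgr5 and Bmi1 lay below it. By limma 0 of the 7 passed at an adjusted p under 0.05, where the share of all genes tested that passed was 0%, and 0 of the 7 had an unadjusted p under 0.05, which 4.32% of all genes tested had. Over all 9 genes, 5 had a difference above 0 and 4 below 0, with a median of 0.06, against a median of −0.00 over all genes tested. Without MMTV-Cre replicate 1 these counts were again 5 and 4, and the median was 0.01, as it was over all genes tested. Without wild-type replicate 1 they were 5 and 4 as well, with a median of 0.02 against −0.02 over all genes tested. The 95% intervals of all 9 genes included 0. A difference in a bulk sample cannot tell fewer cells of a type apart from less RNA per cell.

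Both cell layers were present by their markers. All 13 luminal markers and 12 of 13 measured basal and myoepithelial markers reached the limit, the exception being Oxtr. All 8 fibroblast and all 8 endothelial markers also reached it. Wild-type replicate 1 stood apart from the other arrays, with 63 genes at least 1 log2 unit above all of them, against 1 or 2 such genes in each other array. Markers of T cells had a mean log2 level of 5.90 there, against 2.91 and 3.04 in MMTV-Cre and 3.09 in the other wild-type array. Correlations between arrays over the genes tested lay between 0.977 and 0.987, as a description across genes. No probe set in the files carried the symbol of one of the 9 genes together with another symbol.

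The annotated starts of 3 of the 9 genes were matched in RefSeq's promoter table of mouse assembly GRCm38.p6, each with 250 bases before and 50 after the start on the strand of the gene. They are shown as the sequence context of Procr and Lgr6, which had the same order of levels over the 4 arrays, and of Bmi1, a gene below the limit for dim genes. Capitals mark matches, on either strand, to the letters TGACTCA (the AP-1 site), GGGCGG (the GC box), TATAAA (the TATA box), CACGTG (an E-box) or ACAAAG (the core of the SOX site).
Procr, chr2:155750967-155751266, plus strand: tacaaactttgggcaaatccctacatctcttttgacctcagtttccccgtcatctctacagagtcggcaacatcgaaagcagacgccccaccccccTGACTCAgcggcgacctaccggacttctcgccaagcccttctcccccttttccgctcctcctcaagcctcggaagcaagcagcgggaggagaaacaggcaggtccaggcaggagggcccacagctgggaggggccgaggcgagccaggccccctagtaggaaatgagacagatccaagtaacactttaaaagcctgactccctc
Lgr6, chr1:135105227-135105526, minus strand: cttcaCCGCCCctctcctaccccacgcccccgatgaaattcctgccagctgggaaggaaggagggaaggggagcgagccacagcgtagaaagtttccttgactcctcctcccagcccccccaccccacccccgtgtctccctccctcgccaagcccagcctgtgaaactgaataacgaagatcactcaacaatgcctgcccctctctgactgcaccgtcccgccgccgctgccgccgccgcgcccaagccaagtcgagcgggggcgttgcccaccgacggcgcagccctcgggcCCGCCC
Bmi1, chr2:18676768-18677067, plus strand: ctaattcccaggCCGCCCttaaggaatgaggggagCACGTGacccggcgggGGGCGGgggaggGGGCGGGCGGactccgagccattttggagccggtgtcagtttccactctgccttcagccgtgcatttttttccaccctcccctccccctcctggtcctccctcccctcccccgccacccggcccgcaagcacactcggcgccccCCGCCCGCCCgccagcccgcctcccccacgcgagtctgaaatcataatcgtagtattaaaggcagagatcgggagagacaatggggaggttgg
The window of Procr held 1 match to TGACTCA, at position 97 of the printed sequence, where 5.2% of the 32851 promoters of the same length in the table held one. The window of Lgr6 held 2 matches to GGGCGG and that of Bmi1 held 6, of which neighbouring ones overlap, and 35.7% of all promoters held at least 1. Bmi1 also had 1 match to CACGTG, which 7.15% of promoters held. None of these 3 windows held TATAAA or ACAAAG, which 13.6% and 18.7% of promoters held. The base composition of the windows was 58.3% G and C for Procr, 67.7% for Lgr6 and 66.3% for Bmi1. A match describes the letters and is not a measured binding site.

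The basal regulator Trp63 was lowest in MMTV-Cre replicate 1 and close together on the other arrays. It stood at 3.11 and 3.61 in MMTV-Cre, against 3.54 and 3.66 in wild-type. The second MMTV-Cre array lay between the wild-type arrays, so the groups overlapped, and the gap between the MMTV-Cre arrays, 0.50, was wider than that between the wild-type arrays, 0.12. The difference was −0.24 (SE 0.19, 95% interval −0.74 to 0.25) and did not pass by limma (adjusted p = 0.976). Without MMTV-Cre replicate 1 it was 0.01 (−0.40 to 0.42), and without MMTV-Cre replicate 2 it was −0.49, with an unadjusted p = 0.0288 and an adjusted p = 0.827 by limma. The value of Trp63 below 0 thus rested on MMTV-Cre replicate 1.

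Cdh3, which encodes P-cadherin, the adhesion molecule of basal and myoepithelial cells, was spread widest of the 9 genes. Its levels were 3.32 and 4.15 in MMTV-Cre, against 3.79 and 3.49 in wild-type. The MMTV-Cre arrays were the lowest and the highest of the 4 and enclosed both wild-type arrays. The difference was 0.10 (SE 0.29, −0.65 to 0.85, adjusted p = 0.995 by limma). Without MMTV-Cre replicate 1 it was 0.51 (−0.02 to 1.04, adjusted p = 0.929 by limma). Without MMTV-Cre replicate 2 the sign was the opposite, at −0.31.

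**Figure D1:**
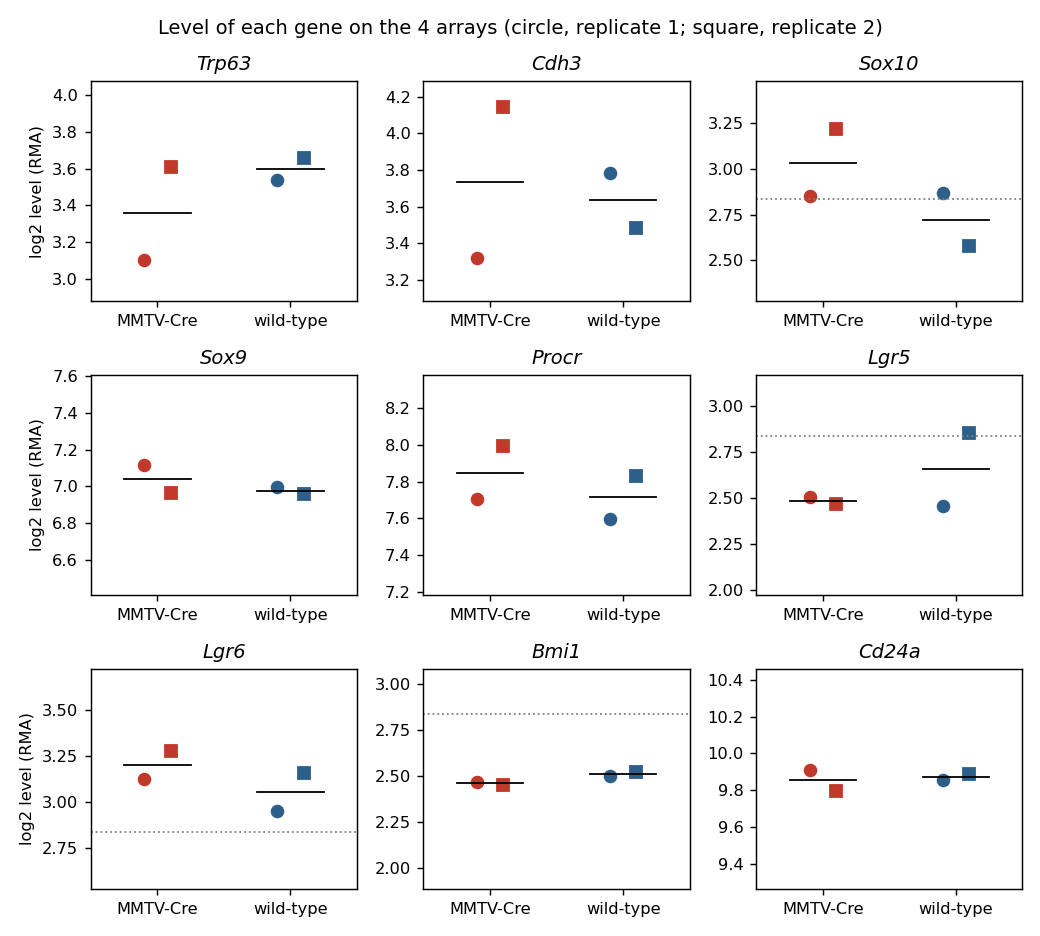
Log2 level of each of the 9 genes (y axis, RMA values, each panel spanning the same number of log2 units) in MMTV-Cre (red) and wild-type (blue), with circles for replicate 1, squares for replicate 2, bars for group means and a dotted line at 2.84, the limit for dim genes. The MMTV-Cre arrays of Cdh3, at 3.32 and 4.15, enclose the wild-type arrays, and Bmi1 and Sox9 vary little.

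Of the 9 genes, Trp63 and Cdh3 were lowest in MMTV-Cre replicate 1 and Cd24a and Sox9 highest in it, and over all genes tested 30.2% were lowest and 23.7% highest there. Of the 12 tested genes of the basal and myoepithelial list, 5 were lowest in that array, namely the keratins Krt14, Krt15 and Krt17, the chemokine gene Cxcl14 and the integrin gene Itga6. Another 6 were highest in it, the contractile genes Acta2, Myh11, Mylk, Cnn1, Tagln and Myl9, and Itgb4 was neither. The grouping of these genes as keratins and contractile genes was chosen after their values were seen and was not tested. Krt14, the main basal keratin, stood at 7.27 and 8.07 in MMTV-Cre, against 8.02 and 7.97 in wild-type.

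Among the contractile genes, smooth muscle actin Acta2 stood at 8.46 and 8.26 in MMTV-Cre, against 8.04 and 7.87 in wild-type, so both MMTV-Cre arrays were above both wild-type arrays. Its difference was 0.40 (0.06 to 0.75), with an unadjusted p = 0.0289 by limma, and without MMTV-Cre replicate 1 it was 0.30. Cnn1, which encodes the smooth muscle protein calponin, differed by 0.31 (0.01 to 0.61) and was likewise higher in both MMTV-Cre arrays. Neither passed over all genes tested. Of the 12 tested genes of the list, 3 were higher in both MMTV-Cre arrays, as 16.7% of all genes tested were. An unadjusted p under 0.05 by limma was found for 2 of the 12, and for 4.32% of all genes tested. The myosin light chain gene Myl9 was at 7.28 and 6.65 in MMTV-Cre, against 6.87 and 6.78 in wild-type, with a difference of 0.14 that became −0.17 without MMTV-Cre replicate 1. For the whole list of 12 tested basal and myoepithelial genes, 7 had a difference above 0 and 5 below 0, with a median of 0.06 with or without that array, and 0 passed.

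**Figure D2:**
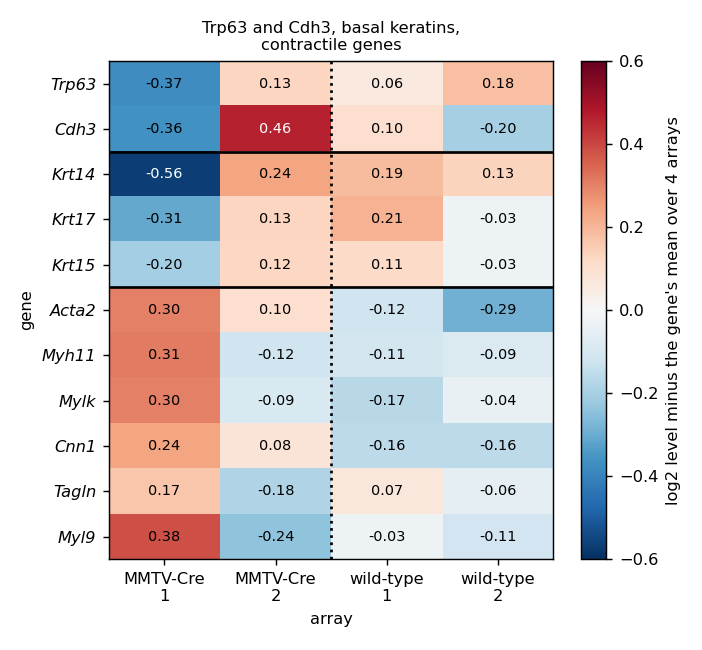
Log2 level minus the gene's mean over the 4 arrays (colour and printed value) for Trp63 and Cdh3 (top), 3 basal keratins (middle) and 6 contractile genes (bottom), by array, with MMTV-Cre left of wild-type. In MMTV-Cre replicate 1 the upper 5 genes lie below their means, Krt14 by 0.56, and the 6 contractile genes lie above theirs.

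Known targets of p63 had no shared direction of difference with all 4 arrays. Of the 20 listed, 18 were measured and 14 tested. Of these, 8 had differences above 0 and 6 below 0, with a median of 0.01 and 0 passing. The mean log2 level of the 18 was 4.75 and 4.90 in MMTV-Cre, against 4.88 and 4.89 in wild-type. It was lowest in MMTV-Cre replicate 1, as Trp63 was and as 30.2% of all genes tested were. List means of R-spondin and Wnt receptor genes, reported stem cell markers and protein C pathway genes were also lowest there. Those of Polycomb genes, other Sox genes and cadherin and catenin genes were not. Without MMTV-Cre replicate 1 the median of the 14 was 0.05, against 0.01 over all genes tested. Without MMTV-Cre replicate 2 it was −0.05, against −0.02 over all genes tested. It was 0.01 without wild-type replicate 1 and −0.00 without wild-type replicate 2. The basement membrane receptor subunit Itgb4 differed by 0.11 (−0.18 to 0.39) and the laminin chain Lama3 by −0.10 (−0.39 to 0.19). Both had groups that did not overlap, in opposite directions, as had 3 of the 14, where 33.1% of all genes tested did. The growth factor gene Bmp7 differed by −0.12.

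Other genes of cell junctions were also divided. Of 8 tested genes of cadherins, catenins and plakophilins, 3 had differences above 0 and 5 below 0, and 0 passed. The gene of E-cadherin, Cdh1, differed by −0.13 (−0.45 to 0.19), with 9.07 and 8.86 in MMTV-Cre against 9.09 and 9.09 in wild-type. The catenin genes Ctnnb1 and Ctnnd1 differed by 0.13 and 0.08, and Cdh4 by −0.07.

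Sox10, a transcription factor of neural crest cells and their glial and pigment cell descendants that is also found in mammary basal and progenitor cells, had the largest difference of the 9 genes with all 4 arrays, but not without either MMTV-Cre array. It stood at 2.85 and 3.22 in MMTV-Cre, against 2.87 and 2.58 in wild-type. MMTV-Cre replicate 2 was the highest array and wild-type replicate 2 the lowest, with the other arrays about equal, so the groups overlapped by a narrow margin. The difference was 0.31 (SE 0.18, −0.15 to 0.77, adjusted p = 0.964 by limma) and 0.49 without MMTV-Cre replicate 1 (−0.03 to 1.02, adjusted p = 0.929), where Cdh3 had 0.51. Without MMTV-Cre replicate 2 it was 0.13, where Trp63 had −0.49 and Cdh3 −0.31. Sox10 reached the limit for dim genes only through its MMTV-Cre mean of 3.03, with a wild-type mean of 2.72.

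Genes of other cells that express Sox10 were examined beside it. Of 8 Schwann cell markers, 5 were measured and 2 reached the limit, and Cdh19, Gfra3 and Foxd3 were below it. Mbp, a myelin protein gene, stood at 5.23 and 5.44 in MMTV-Cre, against 4.88 and 5.13 in wild-type. It was higher in both MMTV-Cre arrays, as 16.7% of all genes tested were. S100b, a calcium-binding protein gene of glia, stood at 3.22 and 3.57 in MMTV-Cre, against 2.96 and 3.32 in wild-type. The summed linear signal of the 5 measured markers ran from 61.9 to 72.1 in MMTV-Cre and from 49.1 to 59.9 in wild-type. Their mean log2 level was 3.04 and 3.28 in MMTV-Cre, against 2.74 and 3.06 in wild-type, so the groups overlapped by this measure. As with Sox10, the markers were highest in MMTV-Cre replicate 2, but their lowest array was wild-type replicate 1, not wild-type replicate 2. The part of such cells in the Sox10 values was not tested. Of 7 melanocyte markers, 3 reached the limit, all with differences below 0, and the pigment enzyme genes Dct, Tyrp1 and Tyr were below it.

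Sox9, a related factor found in luminal progenitors and in cells reported to form gland tissue, varied little. It stood at 7.11 and 6.96 in MMTV-Cre, against 6.996 and 6.956 in wild-type. MMTV-Cre replicate 1 was slightly above the rest and the other arrays lay together. The difference was 0.06 (SE 0.12, −0.24 to 0.36, adjusted p = 0.995 by limma) and −0.01 without MMTV-Cre replicate 1 (−0.39 to 0.37). Of 17 other Sox genes measured, 6 reached the limit, and 3 had differences above 0 and 3 below 0. Sox7, an endothelial factor, differed by 0.31 (−0.12 to 0.74) and was higher in both MMTV-Cre arrays, as 16.7% of all genes tested were, while Sox4 differed by −0.06, Sox13 by −0.05 and Sox15 by 0.29 with an interval of −0.61 to 1.19.

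Procr was read far above the limit, and the second replicate of each group was higher than the first. Its levels were 7.71 and 7.99 in MMTV-Cre, against 7.60 and 7.83 in wild-type. Wild-type replicate 2 lay between the MMTV-Cre arrays, so the groups overlapped. The difference was 0.14 (SE 0.16, −0.27 to 0.54, adjusted p = 0.990 by limma), and 0.28 without MMTV-Cre replicate 1 (−0.20 to 0.76). Without wild-type replicate 1, the array with T cell transcripts, it was 0.02.

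Procr is also a gene of endothelial cells, and the mean of the endothelial markers had a similar split between replicate numbers. Over all genes tested, 30.2% were lowest in MMTV-Cre replicate 1 and 28.8% in wild-type replicate 1. In the second replicates 22.7% and 18.3% were lowest. All 8 endothelial markers reached the limit. Their mean log2 level was 5.17 and 5.45 in MMTV-Cre, against 5.10 and 5.56 in wild-type. The summed linear signal of these markers ran from 570.7 to 740.2 in MMTV-Cre and from 541.3 to 718.5 in wild-type. Cdh5, the cadherin that defines endothelium, stood at 7.83 and 8.14 in MMTV-Cre, against 7.72 and 8.02 in wild-type. Its order over the arrays was that of Procr, as was that of Esam. The other endothelial markers had other orders. Tie1, Vwf, Kdr, Tek and Emcn were highest in wild-type replicate 2, and Pecam1 was lowest in MMTV-Cre replicate 1. Within MMTV-Cre, Tek was lower in replicate 2, at 3.65, than in replicate 1, at 3.82. Of the 8 fibroblast markers, 7 had differences above 0, and in 5 (Col1a1, Col1a2, Col3a1, Col6a3 and Dpt) both MMTV-Cre arrays lay above both wild-type arrays, as they did in 16.7% of all genes tested. Their summed linear signal was 1876 and 2210 in MMTV-Cre, against 1764 and 1818 in wild-type. Their mean log2 level was 7.02 and 7.52 in MMTV-Cre, against 7.04 and 7.05 in wild-type, with the receptor gene Pdgfra at 4.34 in MMTV-Cre replicate 1 and at 5.05 or more elsewhere. The part of either cell type in the Procr values was not tested.

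**Figure D3:**
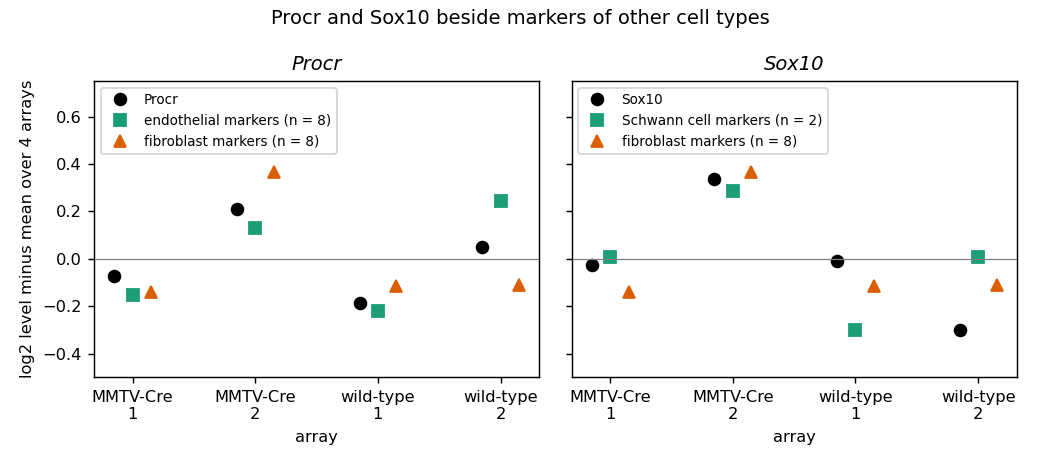
Log2 level minus the mean over the 4 arrays (y axis) on each array (x axis) for Procr with endothelial and fibroblast marker means (left) and Sox10 with Schwann cell and fibroblast marker means (right), over markers that reached the limit for dim genes. Procr and the endothelial markers are both below their means in replicate 1 of each group. Over all genes tested, 30.2% were lowest in MMTV-Cre replicate 1 and 28.8% in wild-type replicate 1. Sox10, the Schwann cell and the fibroblast markers are highest in MMTV-Cre replicate 2.

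Other genes of the protein C pathway had no shared direction. Of 9 listed, 8 were measured and 5 tested, with 3 differences above 0, 2 below 0 and none past the limma threshold, where 0 also had an unadjusted p under 0.05. Pros1, which encodes the cofactor protein S, differed by 0.26 (−0.24 to 0.75), F2r, the thrombin receptor through which activated protein C signals, by −0.19, Tfpi by 0.03 and the tissue factor gene F3 by 0.00. The gene of protein C itself, Proc, was below the limit.

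Of the R-spondin receptors, Lgr6 was above the limit on every array and Lgr5 below it on all but one. Lgr6 stood at 3.12 and 3.27 in MMTV-Cre, against 2.95 and 3.15 in wild-type. The wild-type replicate 2 value fell between the MMTV-Cre values, so the groups overlapped, and the order of the 4 arrays was the same as for Procr. The difference was 0.15 (SE 0.13, −0.19 to 0.49, adjusted p = 0.976 by limma) and 0.22 without MMTV-Cre replicate 1 (−0.23 to 0.68). It was 0.04 without wild-type replicate 1.

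Lgr5 stood at 2.51 and 2.46 in MMTV-Cre, against 2.46 and 2.86 in wild-type. Wild-type replicate 2 alone was raised, and the other 3 arrays lay close together. The difference was −0.17, with an interval of −0.58 to 0.24 from a fit of all 22180 genes with no filter, and −0.19 without MMTV-Cre replicate 1 (−0.79 to 0.40). Without wild-type replicate 2 it was 0.03. The second probe set of Lgr5 read 2.45 and 2.43 in MMTV-Cre, against 2.57 and 2.56 in wild-type. Its difference was −0.13 with groups that did not overlap, where 33.1% of all genes tested had separate groups. This probe set did not share the raised value in wild-type replicate 2.

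Genes that work with these receptors did not pass the test. Of 24 listed genes of R-spondins, Wnt receptors and their feedback regulators, 17 were tested, of which 12 had differences above 0 and 5 below 0, with a median of 0.09, where 49.0% of all genes tested had differences above 0. In 6 of the 17 both MMTV-Cre arrays lay above both wild-type arrays, where 16.7% of all genes tested did so, and in 1 both lay below, against 16.5%. Of the 17, the Wnt inhibitor gene Apcdd1 reached the limit for dim genes only through its MMTV-Cre mean, and without it 11 of 16 had differences above 0 and 5 had both MMTV-Cre arrays above, with a median of 0.07. Fibroblast markers had more differences above 0 as well, with a median of 0.25, and their part in these values was not tested. The Wnt receptor gene Fzd7, which is used in basal mammary cells, stood at 3.59 and 3.53 in MMTV-Cre, against 3.19 and 3.22 in wild-type, a difference of 0.36 (0.08 to 0.63) with an unadjusted p = 0.0206 and an adjusted p = 0.964 by limma. It was the sole gene of the 17 with an unadjusted p under 0.05 by limma, which 4.32% of all genes tested had. Its difference was 0.33 without MMTV-Cre replicate 1. The nuclear effector Tcf7l2 differed by 0.16 and was higher in both MMTV-Cre arrays, while Znrf3, which removes Wnt receptors from the surface, differed by −0.25. The R-spondin genes Rspo2, Rspo3 and Rspo4 were below the limit. The median of the list was 0.14 without MMTV-Cre replicate 1, 0.00 without MMTV-Cre replicate 2 and 0.04 without wild-type replicate 1.

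Bmi1 encodes a subunit of Polycomb repressive complex 1, which silences the cell-cycle inhibitor locus Cdkn2a and sustains self-renewal in several tissues. It stood at 2.47 and 2.45 in MMTV-Cre, against 2.50 and 2.52 in wild-type. Both MMTV-Cre arrays were below both wild-type arrays, the single case of separate groups among the probe sets that stood for the 9 genes, where 33.1% of all genes tested had separate groups. All of its values were below the limit for dim genes. The difference was −0.05 (−0.34 to 0.24 in the fit with no filter) and −0.06 without MMTV-Cre replicate 1 (−0.45 to 0.33). The gap between the 2 arrays of a group was 0.021 in both groups, equal within 1e-06, which held for 108 of 41345 probe sets (0.261%) and for 1 of the 11 probe sets here. The cause of the equal gaps was not tested.

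Of 19 listed genes of the Polycomb complex and its target Cdkn2a, 13 were tested, with 5 differences above 0, 8 below 0, a median of −0.05 and 0 passing. Pcgf5, a relative of Bmi1 in variant complexes, differed by −0.24 (−0.68 to 0.19), Phc1 by −0.21, Yaf2 by −0.13 and the chromobox gene Cbx2 by 0.17. The differences of Phc1 and Yaf2 were 0.00 without MMTV-Cre replicate 1. Cdkn2a was below the limit.

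Cd24a encodes a small glycoprotein anchored to the cell surface by a lipid, which is used with integrins to sort mammary cells, being higher on luminal than on basal cells. It stood at 9.91 and 9.80 in MMTV-Cre, against 9.85 and 9.89 in wild-type. All 4 arrays were within 0.11 of one another and the MMTV-Cre arrays enclosed the wild-type ones. The difference was −0.02 (SE 0.11, −0.30 to 0.27, adjusted p = 0.995 by limma) and −0.07 without MMTV-Cre replicate 1 (−0.45 to 0.31). The other probe set of Cd24a read 9.21 and 9.39 in MMTV-Cre, against 9.24 and 9.32 in wild-type, with a difference of 0.02. The 2 probe sets put the MMTV-Cre arrays in opposite order. With all 4 arrays the interval of Cd24a reached about 0.30 log2 units from 0, less far than those of Trp63 and Cdh3. That reach is not a firm bound. The interval of the other probe set reached 0.34, and the SE was 0.05 under eBayes with trend.

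**Figure D4:**
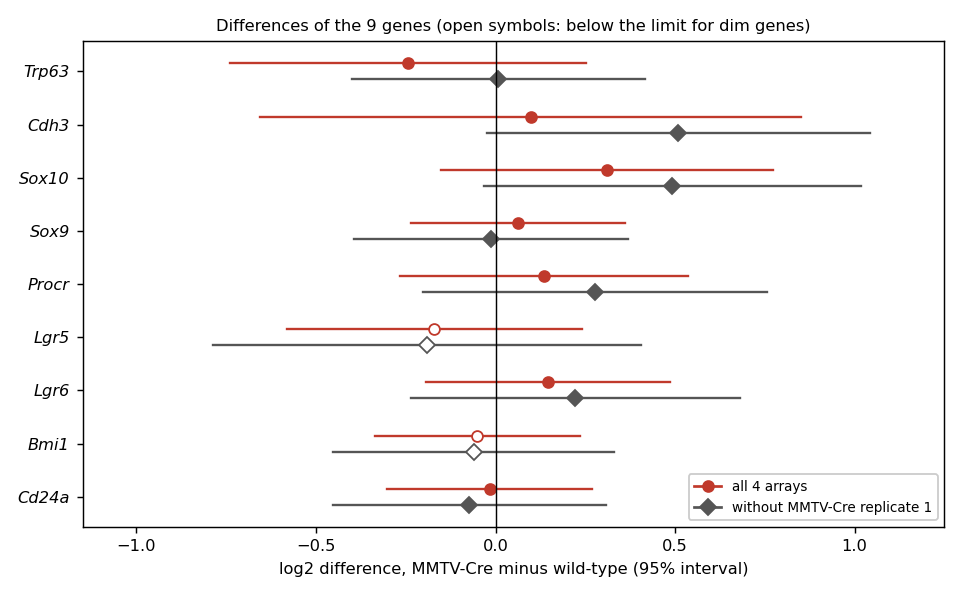
Log2 difference, MMTV-Cre minus wild-type (x axis), of the 9 genes (y axis) with 95% intervals from limma, with all 4 arrays (circles) and without MMTV-Cre replicate 1 (diamonds), open where the gene was below the limit for dim genes. All intervals include 0, and the difference of Cdh3 is 0.10 with all arrays and 0.51 without MMTV-Cre replicate 1.

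Further genes reported to mark mammary stem cells did not share a direction. Of 16 listed, 15 were measured and 14 tested, with 7 differences above 0 and 7 below 0, a median of −0.01 and 0 passing. The hyaluronan receptor gene Cd44 stood at 7.76 and 8.04 in MMTV-Cre, against 8.07 and 8.11 in wild-type, so that the groups did not overlap. Cd44 was the 1 gene of the 14 with separate groups, which 33.1% of all genes tested had. Its difference was −0.19 (−0.55 to 0.17) and was −0.05 without MMTV-Cre replicate 1. Snai2, which encodes the basal transcription factor Slug, differed by 0.27 (−0.36 to 0.89). Bcl11b and Inpp5d, which lymphoid and other blood cells also express, differed by −0.26 and −0.40. Both were highest in wild-type replicate 1, the array with T cell transcripts, and lowest in MMTV-Cre replicate 1. Bcl11b stood at 3.57 and 4.05 in MMTV-Cre, against 4.29 and 3.85 in wild-type. Inpp5d stood at 3.22 and 3.67 in MMTV-Cre, against 4.18 and 3.52 in wild-type. For both genes wild-type replicate 2 lay between the MMTV-Cre arrays. Without MMTV-Cre replicate 1 their differences were −0.02 and −0.18. The part of blood cells in these values was not tested.

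The genes whose values over the 4 arrays, after subtraction of each gene's mean, lay closest to those of the 3 widest-ranging tested members were listed by root mean square distance. For Cdh3 they were Cnnm4, Itm2a and Ptafr, at distances of 0.023 to 0.043, against a median of 0.33 over all genes. For Sox10 they were the collagen gene Col6a3, Snord73a and Cers6, at 0.018 to 0.020, against a median of 0.26. For Trp63 they were the prostaglandin synthase gene Ptgs2, Larp6 and Mir1898, at 0.020 to 0.024, against a median of 0.24. With 4 arrays and 11668 genes such closeness is a description of these arrays.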

How the data were processed

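The authors deposited log2 expression per probe set, made with the oligo package and RMA per the submitters' processing notes. Their versions: not given in the sources used here; the log2 scale was read from the values. RNA input was 50 ng per sample, per the labels' protocols. RMA equalises arrays, which hides a change common to most genes. Array medians were 2.83 to 2.86.

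Each array held 41345 probe sets, of which 23521 had 1 gene symbol in the platform annotation. Genes with a mean at or above 2.84 entered limma 3.58.1 (R 4.3.3, lmFit and eBayes with no trend). Genes below it have intervals from the fit of all genes and no adjusted p. The members, gene lists and tests were chosen with earlier results of these data known. Named genes were all 9 members, up to 4 genes of each pathway list by smallest p, and the 3 nearest genes of 3 members; basal, contractile and other cell type genes come from marker lists, and those named from them were chosen after their values were seen. Listed genes without a probe set of their own were not analysed here. The number of arrays limits precision, and the smallest exact permutation p of 2 against 2 is 0.333, two-sided. Alternatives covered filters, probe sets, normalization, variance models, replicate block and each array left out.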

Additional observations from a re-analysis of the deposited data

How the results depend on the processing

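With all 4 arrays and an adjusted p, 0 genes passed under each alternative, and 504 had an unadjusted p under 0.05. The number passing ran from 0 to 13 when 1 array was left out, with 13 without wild-type replicate 2 and none of the 9 genes among them. The replicate number as a block gave 0 genes and changed no call. Deviations of same-numbered arrays correlated at −0.04, and with 2 numbers they are not shown to pair. The median difference of the 9 genes ran from −0.01 to 0.03 when 1 array was left out. The difference of Cd24a turned to 0.0028 under the mean of its probe sets and under quantile normalization, and to 0.022 for its other probe set. With 1 array left out, differences ran from −0.49 to 0.0079 for Trp63, −0.31 to 0.51 for Cdh3, −0.0068 to 0.28 for Procr, −0.073 to 0.040 for Cd24a, −0.013 to 0.14 for Sox9, −0.37 to 0.03 for Lgr5, 0.13 to 0.49 for Sox10, 0.04 to 0.25 for Lgr6 and −0.06 to −0.04 for Bmi1. In these fits the lone array of a group is assumed to vary like the other group, and the cause of the turns was not tested. Levels near the limit for dim genes limit what Sox10, Lgr5, Lgr6 and Bmi1 can show. The means of Trp63 and Cdh3 were higher, at 3.48 and 3.68. Their values in MMTV-Cre replicate 1, 3.11 and 3.32, were also not far above that limit.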
